A study of Mus musculus with 16 samples.

Results

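The genes described here are 7 members of a group that detects force and acid in sensory neurons: *Piezo1*, *Piezo2*, *Asic1*, *Asic2*, *Asic3*, *Tmem120a* and *Stoml3*. They were chosen by name, as the rows whose Ensembl identifiers carry these symbols, and make up 7 of the 52636 genes listed for the dorsal root ganglion (DRG). RNA was sequenced from the L3-6 DRGs of 16 male C57BL/6J mice aged 3 to 4 months, 1 mouse per library and 4 mice per group. Sham-Saline mice had sham surgery and saline, SNI-Saline mice had spared nerve injury and saline, Sham-DMI mice had sham surgery and desipramine (DMI, a tricyclic antidepressant), and SNI-DMI mice had both the injury and DMI. In the injury the common peroneal and sural nerves were tied and cut while the tibial nerve was left in place, so the pooled ganglia hold injured and spared neurons together. DMI was given at 15 mg/kg by 2 intraperitoneal injections a day for 3 weeks, and the saline groups had vehicle on the same schedule. By the labels and the results of the study, treatment began when 4 weeks had passed since surgery, whereas its methods give the same number in months. The side of the ganglia is not given in the sources used here.

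Piezo proteins form very large cation channels that open when the membrane is stretched. Piezo2 is the main transducer of touch and limb position in DRG neurons, and Piezo1 is best known from blood vessels and red blood cells. Acid-sensing ion channels (ASICs) are sodium channels that open when protons bind, assemble as trimers of the same or different subunits, and contribute to pain from inflamed or poorly perfused tissue. Tmem120a (TACAN) is a membrane protein that was proposed as a force sensor and can inhibit Piezo2, and Stoml3 is a stomatin-domain protein of the membrane that sensitizes Piezo channels and modulates ASICs.

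The libraries held between 41194238 and 73920332 read pairs counted on genes. Levels are counts per 1000000 (CPM) after TMM scaling, and 6 of the 7 genes passed the filter on low counts, with 205 to 51349 counts per library. *Stoml3* did not pass it. In the labels the tissue field reads spinal cord and the cell type field reads DRG. Summed over a list of markers, peptidergic nociceptors reached 2653 to 3047 CPM in the 16 libraries, against 1.773 to 5.313 CPM for spinal cord neurons and 2.246 to 25.61 CPM for oligodendrocytes. Injured neuron markers, a list that holds *Atf3* and *Sox11*, summed to 64.34 to 79.2 CPM in Sham-Saline mice and 82.69 to 113.4 CPM in Sham-DMI mice, and to 215.3 to 243.2 CPM in SNI-Saline mice and 191.3 to 338.4 CPM in SNI-DMI mice. The DMI libraries carry the numbers 17 to 24 and the saline libraries 33 to 40, and within each treatment the numbers run by surgery, so that library order cannot be told apart from treatment or surgery.

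The genes lie on 6 chromosomes of GRCm38, and their positions and exons come from GENCODE M21. *Asic3* (ENSMUSG00000038276) spans chr5:24413392-24417835 on the plus strand with 2423 exonic bases, and *Tmem120a* (ENSMUSG00000039886) spans chr5:135735485-135744448 on the minus strand. *Asic1* (ENSMUSG00000023017) lies at chr15:99670368-99701130, *Asic2* (ENSMUSG00000020704) at chr11:80880169-81968457, *Piezo1* (ENSMUSG00000014444) at chr8:122481698-122551329, *Piezo2* (ENSMUSG00000041482) at chr18:63010213-63387183 and *Stoml3* (ENSMUSG00000027744) at chr3:53488653-53508502. *Piezo1* shares 2441 of its 9935 exonic bases with *Ctu2* on the opposite strand. The libraries were stranded but the strand setting of the counting is not stated, so the *Piezo1* level is uncertain. No other member shares exonic bases with another gene.

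Per length of exon, taken as the union over annotated transcripts, *Asic3* was the most abundant member and *Stoml3* the least. The order depends on that length, which is 17162 bases for *Piezo2* and 2423 for *Asic3*. Which transcripts were present was not measured. In CPM *Piezo2* lay above *Asic3*, at 703.4 against 139.4 in Sham-Saline mice. In Sham-Saline mice *Asic3* had 57.52 ± 4.082 CPM per kb (SD, n = 4), more than 96.28% of the tested genes. *Piezo2* followed with 40.98 ± 3.075 CPM per kb, and *Asic2* had 27.76 ± 1.539 CPM per kb. *Asic1* with 14.36 ± 1.528 and *Tmem120a* with 13.17 ± 0.6805 CPM per kb lay close together. *Piezo1* reached 0.7205 ± 0.2207 CPM per kb, more than 29.71% of the tested genes, and *Stoml3* 0.05915 ± 0.03451 CPM per kb. *Asic3* exceeded *Piezo2*, *Asic2* exceeded *Asic1*, *Tmem120a* exceeded *Piezo1* and *Piezo1* exceeded *Stoml3* in 16 of 16 libraries. Neighbours in this order changed places between mice in 2 cases. *Piezo2* exceeded *Asic2* in 14 of 16 libraries, and *Asic1* exceeded *Tmem120a* in 11 of 16. The other ASIC subunits were scarce, with *Asic4* at 0.4006 ± 0.1696 CPM in Sham-Saline mice and *Asic5* at no more than 1 count in any library.

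**Figure D1:**
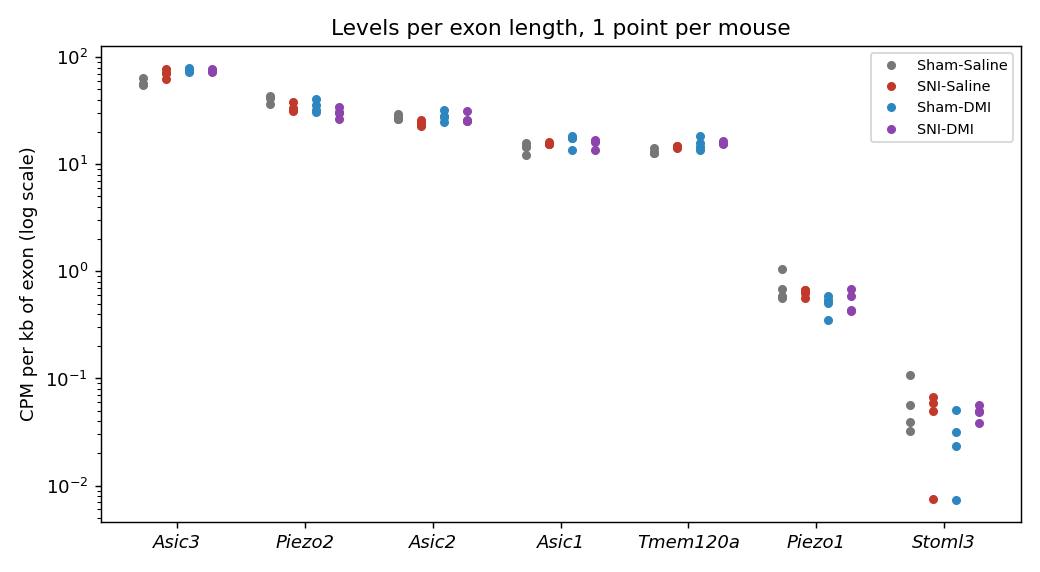
CPM per kb of exon on a log axis for the 7 genes, with 1 point per mouse coloured by group. By this measure, which divides by the union of exons, *Asic3* lies above *Piezo2* in every library. *Piezo1* and *Stoml3* lie far below the other 5 genes.

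Promoters are shown for the 4 members with the largest differences in Sham-DMI mice among those that passed the filter and have a sequence. Each runs from 250 bases before to 50 bases after a RefSeq start site in GRCm38.p6, 5′ to 3′ on the strand of the gene. Capitals mark matches on either strand to the GC box (GGGCGG), the CCAAT box (CCAAT), the TATA box (TATAAA), the CRE (TGACGTCA) and the AP-1 site (TGACTCA). These motifs occur in 35.7%, 37.4%, 13.6%, 1.79% and 5.2% of the 32851 promoters in the RefSeq table.
Asic3, chr5:24413201-24413500, plus strand: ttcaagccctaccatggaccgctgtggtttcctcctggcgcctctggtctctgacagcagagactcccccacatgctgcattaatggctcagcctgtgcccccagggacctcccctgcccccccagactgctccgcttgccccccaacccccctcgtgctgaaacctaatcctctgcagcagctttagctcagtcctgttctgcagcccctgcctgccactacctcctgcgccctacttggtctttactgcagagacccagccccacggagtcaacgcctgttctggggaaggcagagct
Tmem120a, chr5:135744123-135744422, minus strand: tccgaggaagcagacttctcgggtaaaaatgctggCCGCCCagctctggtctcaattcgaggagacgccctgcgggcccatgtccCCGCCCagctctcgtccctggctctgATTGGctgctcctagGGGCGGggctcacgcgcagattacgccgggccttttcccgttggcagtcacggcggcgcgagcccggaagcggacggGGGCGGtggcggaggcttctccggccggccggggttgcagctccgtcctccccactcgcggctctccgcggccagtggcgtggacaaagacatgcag
Asic1, chr15:99691974-99692273, plus strand: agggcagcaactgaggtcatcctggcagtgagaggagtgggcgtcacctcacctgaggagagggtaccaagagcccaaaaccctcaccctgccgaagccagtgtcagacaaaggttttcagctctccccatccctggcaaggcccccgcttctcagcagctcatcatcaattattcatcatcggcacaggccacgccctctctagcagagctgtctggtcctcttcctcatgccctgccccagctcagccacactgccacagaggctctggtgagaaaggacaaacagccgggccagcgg
Piezo1, chr8:122551280-122551579, minus strand: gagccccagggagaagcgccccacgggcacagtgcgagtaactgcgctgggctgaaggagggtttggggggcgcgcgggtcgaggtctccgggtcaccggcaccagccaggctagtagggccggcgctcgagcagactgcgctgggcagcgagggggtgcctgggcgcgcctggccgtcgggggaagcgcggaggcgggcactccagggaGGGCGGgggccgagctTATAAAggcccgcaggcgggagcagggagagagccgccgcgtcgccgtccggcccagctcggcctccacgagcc
The *Tmem120a* promoter holds 4 GC boxes, 1 CCAAT box and 32 CpG dinucleotides, and the *Piezo1* promoter 1 GC box, 1 TATA box and 34 CpG dinucleotides. The *Asic3* and *Asic1* promoters hold none of the 5 motifs and 7 CpG dinucleotides each, where the median promoter holds 7. The *Asic1* and *Tmem120a* windows lie wholly inside the GENCODE spans of their genes. A match is a description of the letters only.

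*Asic3* encodes the subunit that gives sensory neurons their sustained current in mild acid, and it was lowest in Sham-Saline mice. Its level was 154.1, 136.0, 132.9 and 134.5 CPM in the 4 Sham-Saline mice. In SNI-Saline mice it was 185.7, 172.7, 152.3 and 171.1 CPM, and in Sham-DMI mice 185.9, 176.7, 193.6 and 178.4 CPM. SNI-DMI mice had 188.4, 176.1, 178.9 and 182.7 CPM. All Sham-DMI and SNI-DMI mice lay above all Sham-Saline mice, and SNI-Saline replicate 3 alone of the SNI-Saline mice fell below Sham-Saline replicate 1.

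**Figure D2:**
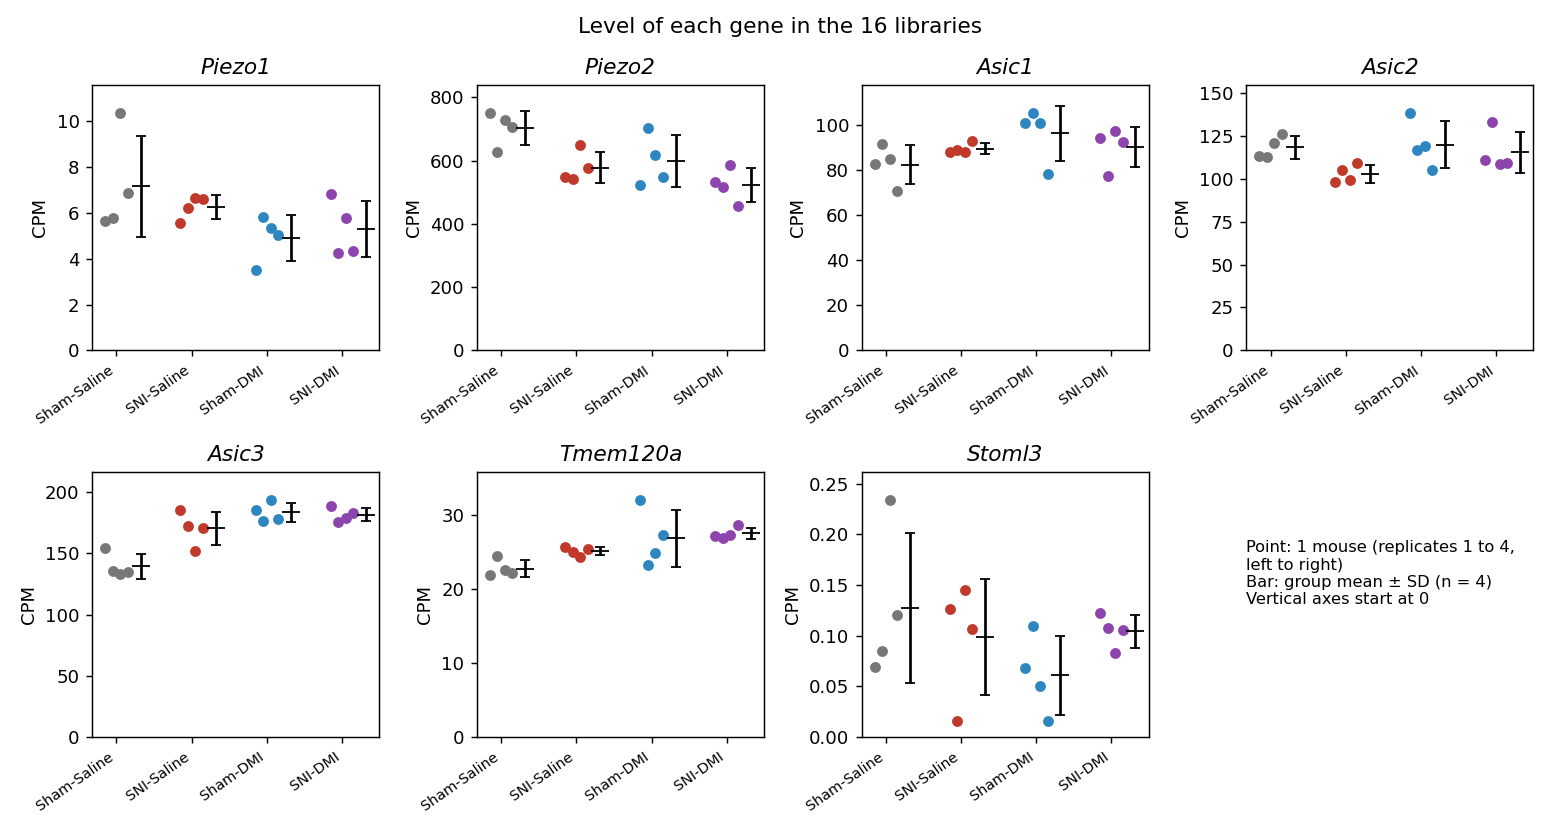
CPM of each gene in the 16 libraries, with 1 point per mouse in replicate order from left to right and bars for the group mean ± SD (n = 4). *Asic3* averages 139.4 CPM in Sham-Saline mice and 170.5 to 183.7 CPM in the other 3 groups, while *Piezo2* averages 703.4 CPM in Sham-Saline mice and 522.9 to 599.1 CPM in the others.

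The first question was what nerve injury does to these genes in saline-treated mice. In SNI-Saline versus Sham-Saline, *Asic3* rose 1.223-fold (log2 fold change 0.29, SE 0.06, adjusted p = 0.0154 by edgeR's quasi-likelihood test). *Piezo2* fell to 0.822 of the Sham-Saline level (log2 fold change -0.28, SE 0.09, adjusted p = 0.0745). These were the 2 of 6 tested members called at an adjusted p under 0.1, a threshold that 12% of all 21371 tested genes passed. The *Asic3* call held in all 16 fits that left out 1 library, with log2 fold changes from 0.26 to 0.35.

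*Piezo2* stood at 749.7, 628.6, 727.9 and 707.3 CPM in Sham-Saline mice and at 546.9, 540.9, 649.2 and 575.7 CPM in SNI-Saline mice. SNI-Saline replicate 3 exceeded Sham-Saline replicate 2, and the other 3 injured mice lay below all 4 sham mice. Removing Sham-Saline replicate 1, 3 or 4, or else SNI-Saline replicate 1, 2 or 4, ended the call, with adjusted p-values of 0.1345 to 0.2104. Markers of A-fiber low threshold mechanoreceptors, neurons that use Piezo2, summed to 2707 to 3333 CPM in Sham-Saline and 2980 to 3250 CPM in SNI-Saline mice. Of their 7 genes 0 were higher and 2 lower, where 12% of all tested genes were called. The largest part of this sum was *Nefh*, averaging 2161 CPM in Sham-Saline and 2413 CPM in SNI-Saline mice. Lower averages after injury were seen for *Ntrk3* (459.1 and 362.7 CPM), *Ntrk2* (267.7 and 221.4 CPM) and *Cadps2* (55.43 and 42.45 CPM). *Necab2* and *Calb1* also averaged lower, and *Colq* higher. Markers of C-fiber low threshold mechanoreceptors summed to 262.5 to 364.6 and 278.4 to 291.3 CPM, with 0 of 6 genes higher and 2 lower, and those of proprioceptors to 291.1 to 385.1 and 359.4 to 446.1 CPM, with 1 of 5 higher and 0 lower. Their part in the *Piezo2* result was not tested. In bulk tissue, fewer cells of a type and less RNA per cell cannot be told apart.

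*Asic2*, a subunit that joins the other ASICs in mixed channels and alters their currents, was at 113.2, 112.8, 121.0 and 126.4 CPM in Sham-Saline and at 97.95, 105.1, 99.24 and 109.3 CPM in SNI-Saline mice. All injured mice lay below all sham mice, a separation in either direction that 15.4% of tested genes showed, but the difference did not pass the threshold (log2 fold change -0.20, SE 0.08, adjusted p = 0.126). *Asic1*, the widely expressed neuronal subunit, had a log2 fold change of 0.12 (95% interval -0.07 to 0.31), *Tmem120a* of 0.14 (-0.02 to 0.30) and *Piezo1* of -0.19 (-0.60 to 0.22), and none of these was called.

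The same injury was compared under DMI. In SNI-DMI versus Sham-DMI 0 of 6 members were called, where 0.402% of tested genes were. *Asic3* differed by -0.02 on the log2 scale (95% interval -0.14 to 0.11). *Piezo2* was at 523.0, 704.7, 619.0 and 549.6 CPM in Sham-DMI mice and at 531.9, 518.1, 586.1 and 455.4 CPM in SNI-DMI mice, with overlapping groups. Its log2 fold change was -0.20 (95% interval -0.39 to -0.004, unadjusted p = 0.0461, adjusted p = 0.402), and -0.10 without Sham-DMI replicate 2 (adjusted p = 0.78). By DESeq2 0 of 6 members were called as well, where DESeq2 called 502 genes in all and edgeR 86. In the edgeR fit 1 of 6 had an unadjusted p under 0.05, as 12.1% of tested genes did.

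Averaged over both treatments, *Piezo2* was lower in SNI than in Sham mice (log2 fold change -0.24, SE 0.06, adjusted p = 0.0309), with 8 of 8 SNI mice below the Sham mean of 651.2 CPM. This call held without each of the 16 libraries in turn, at -0.28 to -0.19. *Asic3* was higher (log2 fold change 0.14, SE 0.04, adjusted p = 0.0487), with 7 of 8 SNI mice above the Sham mean of 161.5 CPM. That mean lies between the Sham-Saline (139.4 CPM) and Sham-DMI (183.7 CPM) averages. The averaged value does not describe both treatments, since the *Asic3* difference was 0.29 in saline mice and -0.02 under DMI. *Piezo2* and *Asic3* were the 2 of 6 members called over both treatments, where 16.1% of tested genes were called.

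DMI was next compared with saline in mice without nerve injury. In Sham-DMI versus Sham-Saline 5 of 6 members were called, 3 higher and 2 lower, against 23.4% of all tested genes, 11.6% higher and 11.9% lower. Fitted on the 8 libraries of this comparison alone, 1 of 6 members was called, and 3742 genes were called in all, against 5010 with the 16 libraries. *Asic3* rose 1.318-fold (log2 fold change 0.40, SE 0.06, adjusted p = 0.00176) and held in all 16 fits without 1 library, at 0.38 to 0.47. It was the 1 member of 6 whose groups did not overlap, where 17.1% of tested genes had no overlap. This comparison and that of SNI-Saline share the Sham-Saline mice, so their *Asic3* values are not independent.

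*Tmem120a* was at 21.93, 24.52, 22.55 and 22.17 CPM in Sham-Saline mice and at 32.07, 23.29, 24.92 and 27.37 CPM in Sham-DMI mice. Sham-DMI replicate 1 was the highest of all 16 libraries, and replicate 2 fell within the Sham-Saline range. The gene rose 1.181-fold (log2 fold change 0.24, SE 0.08, adjusted p = 0.0381), and without Sham-DMI replicate 1 the value was 0.16 with an adjusted p of 0.111.

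*Asic1* was at 82.71, 91.57, 84.8 and 70.54 CPM in Sham-Saline mice and at 101.0, 105.2, 101.1 and 78.13 CPM in Sham-DMI mice. Of the DMI-treated sham mice 3 lay above every Sham-Saline mouse and the remaining one within their range. *Asic1* rose 1.169-fold (log2 fold change 0.23, SE 0.09, adjusted p = 0.0966). It was called in 8 of 16 fits without 1 library. Removing Sham-Saline replicate 1, 3 or 4, or else SNI-Saline replicate 3 or 4, or else Sham-DMI replicate 1, 2 or 3, ended the call, with adjusted p-values of 0.1078 to 0.2667.

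*Piezo1* was at 5.634, 5.801, 10.35 and 6.853 CPM in Sham-Saline mice and at 3.501, 5.833, 5.344 and 5.029 CPM in Sham-DMI mice. The third Sham-Saline mouse was far above the other 15 libraries. *Piezo1* fell to 0.6883 of the Sham-Saline level (log2 fold change -0.54, SE 0.20, adjusted p = 0.0686). Without that mouse the log2 fold change was -0.29 with an adjusted p of 0.333, and the call was also lost without Sham-Saline replicate 4 (0.1006) and without Sham-DMI replicate 1 (0.2265) or 4 (0.12).

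The same Sham-Saline mouse had the highest summed level of the 16 libraries in the endothelial list (160.7 CPM) and in the list of pericytes and smooth muscle (301.7 CPM), and the second highest in fibroblasts (698.6 CPM). It was also highest for spinal cord neurons (5.313 CPM). Sham-Saline replicate 2 was second in the endothelial list (152.7 CPM) with *Piezo1* at 5.801 CPM. SNI-Saline replicate 3 was highest in fibroblasts (756.7 CPM) with *Piezo1* at 6.65 CPM. In Sham-DMI mice the endothelial, pericyte and fibroblast lists reached 112.4 to 128.9, 220.9 to 249.2 and 422.7 to 593.2 CPM. In them 1 of 7, 1 of 5 and 0 of 5 genes were lower than in Sham-Saline mice, against 11.9% of all tested genes. The part of these lists in the *Piezo1* result was not tested. *Ctu2*, which overlaps *Piezo1* and modifies transfer RNA, went the other way, with a log2 change of 0.25 (SE 0.09) and an adjusted p of 0.0539.

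*Piezo2* fell in Sham-DMI versus Sham-Saline to 0.8518 of the Sham-Saline level (log2 fold change -0.23, SE 0.09, adjusted p = 0.0938). Sham-DMI replicate 2, at 704.7 CPM, lay within the Sham-Saline range and the other 3 below it. The call remained in 4 of 16 fits without 1 library, those without Sham-Saline replicate 2, SNI-Saline replicate 3, Sham-DMI replicate 2 or SNI-DMI replicate 4, and the adjusted p reached 0.313 in the others. Of the same marker lists, A-fiber low threshold mechanoreceptors had 1 of 7 genes higher and 3 lower in this comparison, C-fiber low threshold mechanoreceptors 0 of 6 called and proprioceptors 1 of 5 higher and 0 lower. Of all tested genes 11.6% were higher and 11.9% lower. *Asic2* had a log2 fold change of 0.02 (95% interval -0.14 to 0.18).

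In injured mice DMI changed none of the members past the threshold. In SNI-DMI versus SNI-Saline 0 of 6 were called, against 2.93% of tested genes. DESeq2 also called 0 of 6, where it called 1859 genes in all and edgeR 626. *Asic2* had a log2 fold change of 0.17 (95% interval 0.003 to 0.33, unadjusted p = 0.0459, adjusted p = 0.261), from 102.9 ± 5.279 to 115.5 ± 11.76 CPM (SD, n = 4), and was the 1 member of 6 with an unadjusted p under 0.05, as 18.5% of tested genes had. Without SNI-DMI replicate 2 the value was 0.09 (adjusted p = 0.638). *Asic3* had a log2 fold change of 0.09 (95% interval -0.03 to 0.22). *Tmem120a* was at 25.71, 25.05, 24.4 and 25.47 CPM in SNI-Saline and at 27.22, 26.94, 27.33 and 28.73 CPM in SNI-DMI mice. All SNI-DMI mice lay above all SNI-Saline mice, as 13.3% of tested genes separated in one direction or the other, and the log2 difference was 0.13 (SE 0.08) at an adjusted p of 0.36.

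Whether DMI acted differently in injured and sham mice was tested as the difference between its effects. For *Asic3* the effect was 0.31 lower in SNI than in Sham mice on the log2 scale (95% interval of the difference -0.48 to -0.13), with an unadjusted p of 0.00181 and an adjusted p of 0.619. No member passed, as 0% of tested genes did, while 7.92% had an unadjusted p under 0.05 and DESeq2 called 16 genes. Averaged over both surgeries, 4 of 6 members differed between DMI and saline, where 30.6% of tested genes did. *Asic3* (log2 fold change 0.24, adjusted p = 0.000953, 8 of 8 DMI mice above the saline mean) and *Tmem120a* (0.19, adjusted p = 0.0187, 7 of 8 above) were higher. *Piezo1* (-0.39, adjusted p = 0.04998) and *Piezo2* (-0.19, adjusted p = 0.0437) were lower, each with 7 of 8 DMI mice below the saline mean. The *Piezo1* call ended on removing Sham-Saline replicate 3 (-0.26, adjusted p = 0.148), replicate 1 of Sham-DMI (0.112) or replicate 4 of SNI-DMI (0.1042). That of *Piezo2* ended without Sham-Saline replicate 1 (0.1123) or 3 (0.1111), without replicate 1 of Sham-DMI (0.1058) or without replicate 4 of SNI-DMI (0.1024).

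*Stoml3* was barely detected, with 1 to 15 counts per library. Summed over the 4 mice it had 33 counts in Sham-Saline and 15 counts in Sham-DMI mice, and 24 counts in SNI-Saline and 26 counts in SNI-DMI mice. Without the filter its log2 fold change was -0.996 in Sham-DMI versus Sham-Saline (SE 0.63, adjusted p = 0.435) and -0.36 in SNI-Saline versus Sham-Saline (SE 0.59, adjusted p = 0.853), so no difference was detectable at this depth. Its relatives were more abundant per kb of exon in Sham-Saline mice, with *Stom* at 9.609, *Stoml2* at 13.76 and *Stoml1* at 45.53 CPM per kb.

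The groups also differed in how levels followed the base composition and length of genes. Against the mean of all libraries, the slope of log2 CPM on GC content per 10 percentage points was -0.18 to -0.06 in Sham-Saline and -0.03 to 0.12 in Sham-DMI libraries, and -0.07 to 0.04 in SNI-Saline and 0.05 to 0.16 in SNI-DMI libraries. Replicate 1 alone set the Sham-DMI upper end (0.12), and the other Sham-DMI libraries had -0.03 to 0.003. Likewise Sham-Saline replicate 1 alone reached -0.18, and the other Sham-Saline libraries had -0.08 to -0.06. The slope per doubling of exon length was positive in all Sham-Saline libraries (0.03 to 0.08) and negative in all SNI-DMI libraries (-0.04 to -0.02). GC content is 58.52% in *Piezo1*, 57.28% in *Asic3*, 57.24% in *Tmem120a*, 56.54% in *Asic2*, 56.41% in *Asic1* and 48.99% in *Piezo2*. The median over tested genes is 49.75%. The exons of *Piezo2* are longer than those of 98.89% of tested genes, and those of *Piezo1* than 92.94%.

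**Figure D3:**
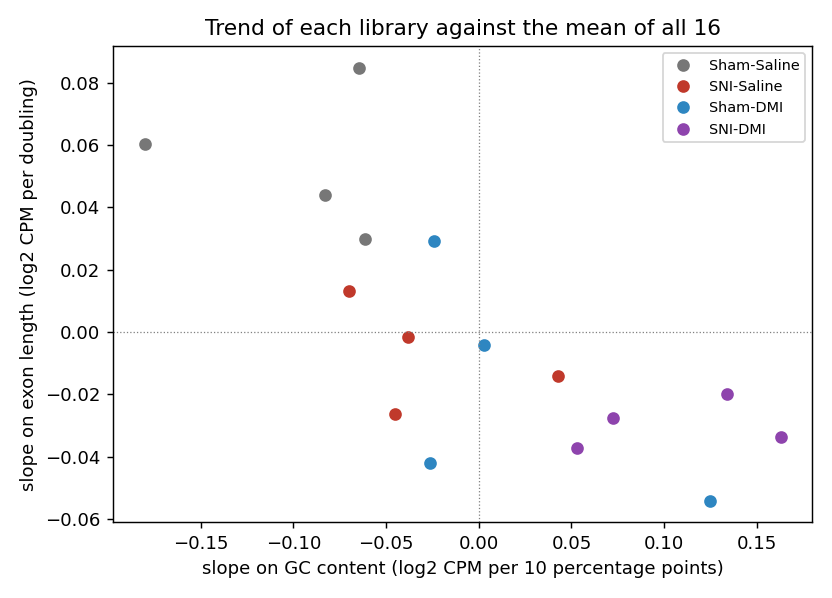
Slope of each library's log2 CPM on exon GC content (horizontal, per 10 percentage points) and on exon length (vertical, per doubling), against the mean of the 16 libraries. Sham-Saline libraries lie at the upper left and SNI-DMI libraries at the lower right.

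With both trends removed from each library, 1 of 6 members was called in Sham-DMI versus Sham-Saline, *Asic3* with a log2 fold change of 0.27 (adjusted p = 0.0176). Calls also fell over all 21371 tested genes, to 2824 from 5010 in this comparison and to 1045 from 2571 in SNI-Saline versus Sham-Saline. The injury difference of *Asic3* was 0.19 (adjusted p = 0.118) and that of *Piezo2* -0.13 (adjusted p = 0.223) in saline mice, where *Asic2* was the 1 member called (-0.24, adjusted p = 0.0663). In Sham-DMI versus Sham-Saline, *Tmem120a* dropped to 0.08 (adjusted p = 0.452), *Piezo2* was -0.10 (adjusted p = 0.305), *Asic1* 0.21 (adjusted p = 0.158) and *Piezo1* -0.49 (adjusted p = 0.11). Over both treatments *Piezo2* was still called lower after injury (-0.13, adjusted p = 0.0654), and *Asic3* was not called (0.05, adjusted p = 0.612). *Asic2*, not called there before the removal (adjusted p = 0.148), was called lower after it (-0.17, adjusted p = 0.037). Of all tested genes 1869 were called over both treatments, against 3449 without the removal. Over both surgeries *Asic3* (0.13, adjusted p = 0.0699) and *Piezo1* (-0.40, adjusted p = 0.0528) were called under DMI, and *Tmem120a* (0.04, adjusted p = 0.524) and *Piezo2* (-0.10, adjusted p = 0.115) were not. Of all tested genes 3788 were called over both surgeries, against 6542 without the removal.

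**Figure D4:**
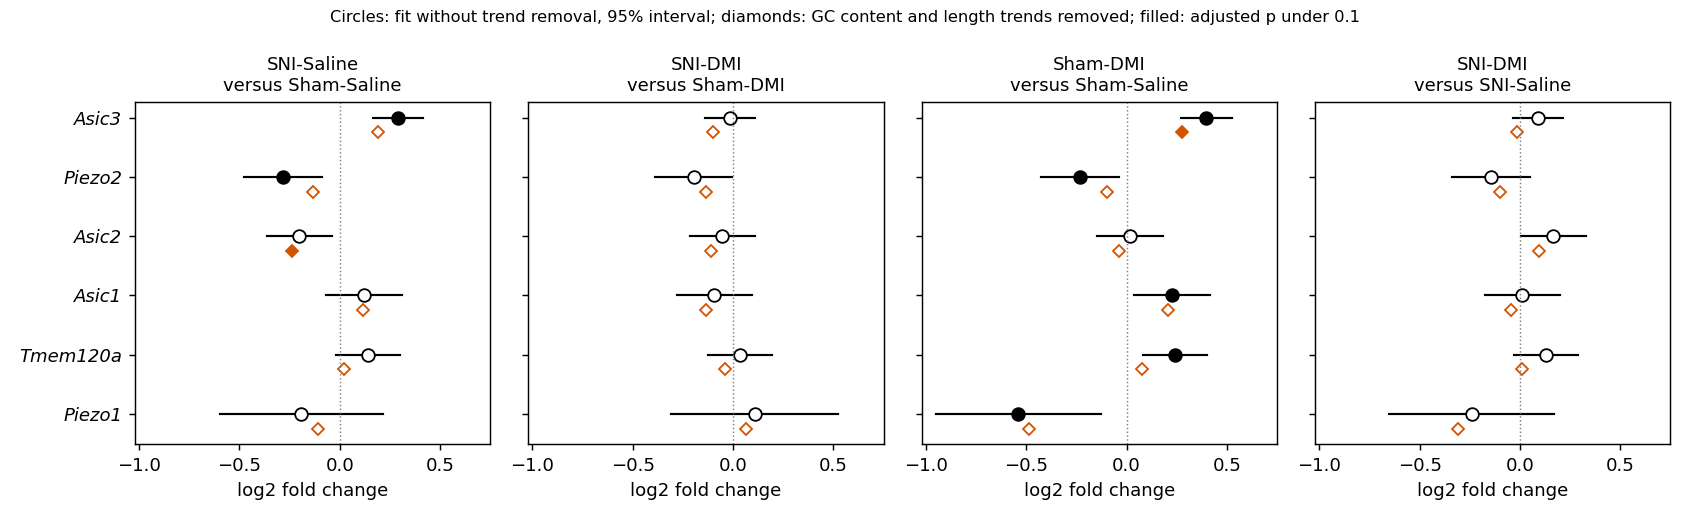
Log2 fold changes of the 6 tested genes in 4 comparisons. Black circles carry 95% intervals from the fit without removal of trends, orange diamonds have the GC content and length trends removed, and filled symbols have an adjusted p under 0.1. *Asic3* in Sham-DMI versus Sham-Saline is filled in both.

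The balance of ASIC subunits was described within each library, as shares of the summed CPM per kb of *Asic1*, *Asic2* and *Asic3*. These ratios were chosen after values had been seen and carry no test. *Asic3* made up 60.83%, 56.96%, 55.97% and 56.97% in Sham-Saline and 66.69%, 63.96%, 61.93% and 62.79% in SNI-Saline mice, without overlap. It averaged 62.88% ± 2.362 in Sham-DMI and 63.63% ± 1.249 in SNI-DMI mice (SD, n = 4). The share of *Asic2* averaged 27.9% in Sham-Saline and 23.24% in Sham-DMI mice, and 21.96% in SNI-Saline and 23% in SNI-DMI mice, and that of *Asic1* stayed between 13.37% and 14.41% on average. The ratio of *Asic3* to *Piezo2* per kb ran from 1.293 to 1.533 in Sham-Saline mice and 1.776 to 2.518 in Sham-DMI mice, and from 1.662 to 2.406 in SNI-Saline mice and 2.162 to 2.841 in SNI-DMI mice, so the Sham-Saline mice lay below the other 12.

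**Figure D5:**
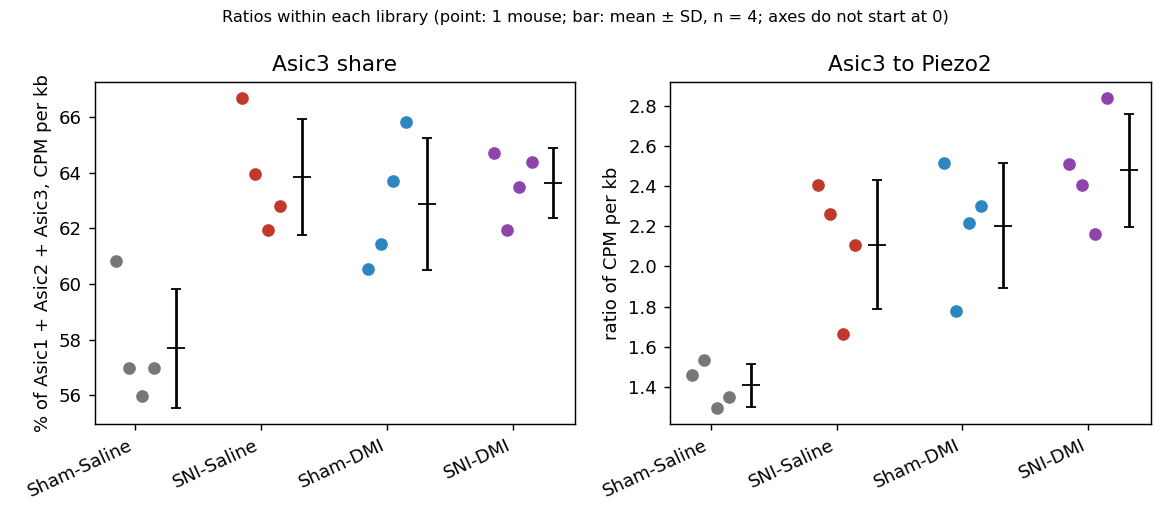
Share of *Asic3* in the summed CPM per kb of 3 ASIC genes (left, percent) and ratio of *Asic3* to *Piezo2* in CPM per kb (right), with 1 point per mouse and bars for mean ± SD (n = 4). The ratio is 1.533 or less in Sham-Saline mice and 1.662 or more in the others. The GC content and length trends were not removed.

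Among 23 other genes for mechanosensitive or stretch-related channels, 1 was higher and 1 lower in SNI-Saline versus Sham-Saline. Of all tested genes 12% were called, and the list median log2 fold change was -0.03 against -0.0006 over all. *Tmc5*, a transmembrane channel-like gene, rose (log2 fold change 0.71, adjusted p = 0.0515) and *Trpa1*, the irritant-gated channel of nociceptors, fell from 78.6 ± 2.684 to 65.79 ± 6.254 CPM (SD, n = 4; log2 fold change -0.26, adjusted p = 0.0273). In Sham-DMI versus Sham-Saline 2 of 23 were higher and 2 lower, where 11.6% of all tested genes were higher and 11.9% lower. *Lrrc8a*, the core subunit of the volume-regulated anion channel, rose (0.33, adjusted p = 0.041) as did *Tmc6* (0.15, adjusted p = 0.0533), which was not called with the trends removed (0.10, adjusted p = 0.218). *Pkd2*, which encodes polycystin-2, fell (-0.33, adjusted p = 0.0228) as did *Tmem87b* (-0.16, adjusted p = 0.0813), which reversed with the trends removed (0.04). None of the 23 was called in the other 2 comparisons of single groups.

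Of 15 other acid sensors and ENaC relatives 12 were tested, and 1 was called in SNI-Saline versus Sham-Saline, where 12% of all tested genes were. *Hvcn1*, the voltage-gated proton channel of immune cells, rose in SNI-Saline versus Sham-Saline, from 0.3738 ± 0.09649 to 0.7734 ± 0.1688 CPM (SD, n = 4; log2 fold change 1.04, adjusted p = 0.0371), and the list had no call in the other 3 comparisons. Macrophage markers summed to 90.48 to 106.8 CPM in Sham-Saline and 115.4 to 200.7 CPM in SNI-Saline mice. Of their 8 genes 4 were higher, against 12% of all tested genes called in either direction. The part of macrophages in the *Hvcn1* result was not tested. *Trpv1*, the heat, capsaicin and acid receptor, was at 244.5 ± 45.3 CPM in Sham-Saline and 225.1 ± 52.72 CPM in SNI-Saline mice and was not called.

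All 14 genes listed as partners and modulators of these channels were tested. In SNI-Saline versus Sham-Saline 2 of 14 were higher and 0 lower, where 12% of all tested genes were called in either direction. The 2 were *Anxa6*, an annexin reported to modulate Piezo2 currents (log2 fold change 0.15, adjusted p = 0.0521), and *S100a10*, which brings several channels to the membrane (0.19, adjusted p = 0.0679). In Sham-DMI versus Sham-Saline 5 of 14 were higher and 2 lower, against the same 11.6% and 11.9% of all tested genes. *Anxa6* (0.23, adjusted p = 0.00362), *S100a10* (0.29, adjusted p = 0.00559) and *Lin7b*, a PDZ scaffold that binds Asic3 (0.36, adjusted p = 0.00834), rose, together with *Stoml1* and *Stoml2*. *Mdfic*, an auxiliary protein of Piezo channels (-0.49, adjusted p = 0.0244), and *Atp2a2*, the calcium pump SERCA2 (-0.18, adjusted p = 0.0616), fell. With trends removed, the injury calls of *Anxa6* (0.07, adjusted p = 0.455) and *S100a10* (0.07, adjusted p = 0.45) were lost, and so were the DMI calls of *S100a10* (0.13, adjusted p = 0.118), *Lin7b* (0.20, adjusted p = 0.15), *Mdfic* (-0.38, adjusted p = 0.109) and *Atp2a2* (-0.14, adjusted p = 0.12), while *Anxa6* kept its DMI call (0.13, adjusted p = 0.0841). Only 2 partner genes, *Anxa6* among them, were then called in any comparison of single groups, so *Stoml1* and *Stoml2* did not both keep their calls.

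The genes whose log2 CPM followed each member most closely over the 16 libraries, among 14172 genes, are given as a description, since libraries share group, depth and base composition trends. *Asic3* was followed by *Psmd2* (Pearson r 0.98, Spearman rho 0.97, r 0.91 with group means removed), which encodes a proteasome subunit, and by *Aars* and *Tcf25* (r 0.97 each). *Piezo2* was followed by *Fat3* (r 0.98, rho 0.99, 0.94 with group means removed), an atypical cadherin, *Zfp382* (r 0.97) and *Samd12* (r 0.97). *Piezo1* was followed by *Syne3* (r 0.95), *Lrp1* (r 0.94) and *Col12a1* (r 0.90), a collagen of connective tissue. *Asic1* was followed by *Slc17a7* (r 0.93, 0.92 with group means removed), the vesicular glutamate transporter, then *Miga2* and *Gpr3* (r 0.85 each). *Asic2* was followed by *Bahd1* (r 0.95), *B4galt5* (r 0.95) and *Wipi2* (r 0.94), and *Tmem120a* by *Fcf1*, *Cfdp1* and *Ubxn1* (r 0.94 each). Between members the strongest relation was the opposite course of *Piezo2* and *Tmem120a* (r -0.86, rho -0.88, -0.80 with group means removed).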

How the data were processed

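Counts per Ensembl gene were deposited by the authors, 1 file per mouse. The submitters' processing notes name mm10, HISAT2 and HTSeq, and the methods name the NGS-Data-Charmer pipeline for stranded libraries read in pairs of 50 bases. The versions of HISAT2 and HTSeq, the annotation release and the strand setting are not given in the sources used here. The 5 closing lines of unassigned reads were left out, and 79.56% to 81.17% of read pairs lay on genes. Of 52636 genes 52489 matched GENCODE M21.

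The main test was the quasi-likelihood test of edgeR 4.0.16 in R 4.3.3: filterByExpr (21371 genes kept), TMM scaling, glmQLFit on all 16 libraries with 1 coefficient per group and glmQLFTest, with Benjamini-Hochberg adjustment over all tested genes and calls at an adjusted p under 0.1. CPM per kb divides by the union of exons. Likeness used log2 CPM with a prior count of 2, for genes with a mean of at least 1. Alternatives were DESeq2 1.42.0, RLE size factors, no filter, a replicate block, the 8 libraries of a comparison, GC content and length trends entered as offsets (mgcv 1.9.3, basis size 8), and leaving out each library. The fit was tested on simulated counts for 1 comparison, with larger changes than most of those of the members and without GC content or length trends. That test does not cover changes as small as most seen here, nor the trends. Replicates were separate mice. The named genes were all 7 members, up to 3 called genes per list, direction and comparison of single groups by smallest p, and the 3 genes most like each member. *Stoml1*, *Stoml2*, *Stom*, *Asic4*, *Asic5*, *Trpv1* and *Ctu2* were named after their values had been seen. The members, lists and tests were chosen with earlier results of these data known.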

Additional observations from a re-analysis of the deposited data

Results flagged for a closer look

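In 3 of 28 groups of 4 mice, counting each gene and group once, 1 mouse stood apart from the rest by Dixon's criterion (gap over range above 0.829), which chance passes in about 1 of 20 groups. *Asic1* was 78.13 CPM in Sham-DMI replicate 4 against 101.0 in the next lowest mouse (gap over range 0.8421). *Asic2* was 133.0 CPM in SNI-DMI replicate 2 against 110.9 in the next highest (0.9143), and that library also had the highest skeletal muscle markers of the 16, at 208.4 CPM summed against 62.93 in the next. *Asic3* was 154.1 CPM in Sham-Saline replicate 1 against 136.0 in the next highest (0.8526).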

How the results depend on the processing

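The *Asic3* rise in Sham-DMI versus Sham-Saline kept its call under every alternative run. Its rise in SNI-Saline versus Sham-Saline kept it under all but the fit with GC content and length trends taken out. With RLE size factors *Piezo2* in Sham-DMI versus Sham-Saline had an adjusted p of 0.107, and by DESeq2 *Asic2* in SNI-Saline versus Sham-Saline passed at 0.0989, as it did with the 8 libraries of that comparison (0.0366). DESeq2 gave no adjusted p for *Hvcn1*. Calls were lost without the filter for *Anxa6* after injury (adjusted p = 0.141), *Tmem87b* (0.154) and *Atp2a2* (0.119), with 8 libraries for *Tmem87b* (0.197) and *Atp2a2* (0.204), and with RLE for *Tmem87b* (0.104). Depth limits *Stoml3*, which had at most 15 counts in a library. The cause of the changes below was not tested.

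With trends removed, signs turned for *Piezo2* in the difference of the DMI effects (-0.00193), *Asic1* in SNI-DMI versus SNI-Saline (-0.0466) and over both treatments (-0.01002), *Asic2* in Sham-DMI versus Sham-Saline (-0.0353), *Asic3* in SNI-DMI versus SNI-Saline (-0.0162), *Tmem120a* in SNI-DMI versus Sham-DMI (-0.0425) and over both treatments (-0.0103), and *Tmem87b* in Sham-DMI versus Sham-Saline (0.0357). Members called were then 1 in SNI-Saline versus Sham-Saline, 1 in Sham-DMI versus Sham-Saline (also 1 with its 8 libraries only) and 2 for DMI over both surgeries, and partner genes called in any of the 4 comparisons of single groups were 2 against 7. Genes called were 1045 against 2571 in SNI-Saline versus Sham-Saline, 141 against 86 in SNI-DMI versus Sham-DMI, 7 against 626 in SNI-DMI versus SNI-Saline, 2824 against 5010 in Sham-DMI versus Sham-Saline, 1869 against 3449 for SNI and 3788 against 6542 for DMI. In SNI-DMI versus Sham-DMI, 310 genes were called without the filter, 502 by DESeq2 and 9 with 8 libraries. In SNI-DMI versus SNI-Saline, 1859 were called by DESeq2 and 1812 with 8 libraries. DESeq2 called 16 genes for the difference of the DMI effects. Acid sensors called were 2 without the filter and 2 with 8 libraries, against 1.

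The correlations gave no sign that replicate numbers pair the mice, but they cannot exclude it. Over 24 same-number pairs the correlation of deviations ran from -0.316 to 0.354 (median 0.025), and 7 exceeded 0.1. Over 72 pairs with different numbers it ran from -0.5645 to 0.468 (median 0.0097), and 16 exceeded 0.1. The replicate block gave 172 genes in SNI-DMI versus SNI-Saline and left *Asic1* in Sham-DMI versus Sham-Saline at 0.22 (adjusted p = 0.105) and *Tmem87b* at -0.16 (adjusted p = 0.108), and ended no other call of the members or of the list genes named by rule.

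Leaving out 1 library, the log2 fold change of *Piezo1* ran from -0.279 to 0.0527 in SNI-Saline versus Sham-Saline, from -0.0416 to 0.208 in SNI-DMI versus Sham-DMI and from -0.117 to 0.083 over both treatments. *Asic1* spanned -0.00809 to 0.0756 in SNI-DMI versus SNI-Saline and from -0.0376 to 0.049 over both treatments, and *Asic2* from -0.128 to 0.0087 in SNI-DMI versus Sham-DMI and from -0.0405 to 0.0939 in Sham-DMI versus Sham-Saline. In SNI-DMI versus Sham-DMI, *Asic3* ran from -0.0456 to 0.02001 and *Tmem120a* from -0.0245 to 0.115. Members called ran from 1 to 3 in SNI-Saline versus Sham-Saline, 1 to 5 in Sham-DMI versus Sham-Saline and 2 to 6 for DMI over both surgeries. Genes called ran from 682 to 3286 in SNI-Saline versus Sham-Saline, 17 to 850 in SNI-DMI versus Sham-DMI, from 0 to 1842 for SNI-DMI against SNI-Saline, 3286 to 6094 in Sham-DMI versus Sham-Saline, 2079 to 4873 for SNI over both treatments and 0 to 1 for the difference of the DMI effects. None was called in SNI-DMI versus SNI-Saline without SNI-DMI replicate 1, 2 or 3 or SNI-Saline replicate 1 or 3. Mechanosensitive channels called ran from 1 to 7 and acid sensors from 0 to 2, and of 16 fits the call was kept in 4 for *Tmem87b*, 6 for *Atp2a2*, 10 and 12 for *S100a10* and *Anxa6* after injury, 12 for *Tmc5*, 13 for *Tmc6*, 14 for *Hvcn1* and *Lrrc8a*, and 15 for *Trpa1*, *Pkd2* and *Mdfic*.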
